A study of Mus musculus with 6 samples.

Results

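The 10 genes described here encode ligands of the tumour necrosis factor (TNF) superfamily: Tnf, Lta, Fasl, Cd70, Tnfsf4, Tnfsf8, Tnfsf9, Tnfsf10, Tnfsf11 and Tnfsf14. They were chosen by name, and all 10 were among the 17369 genes of the deposited table. The cells were mouse T helper 9 (Th9) cells, a T cell class defined by the cytokine IL-9, and they were made in culture from naive CD4+ T cells of the spleen. Wild-type cells were compared with Cblb-/- cells, which lack a working gene for CBL-B, a ubiquitin ligase that restrains T cell activation. Both genotypes had the same treatment for 48 h: hTGFβ at 3 ng/ml, IL-4 at 20 ng/ml and anti-IFNγ at 20 µg/ml, followed by selection on CD4 beads. The sources used here do not state the age, sex and strain of the mice or the form of the Cblb allele.

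TNF family ligands are mostly membrane proteins that act as trimers, and several are also cut from the surface to act at a distance. Each engages a receptor of the TNF receptor family, which then recruits TRAF adaptors and turns on NF-κB and kinase signalling, or, through a death domain, can start cell death. Resting T cells carry little of most of these ligands, and signals from the T cell receptor and from cytokines raise them. In helper T cells they are known for driving inflammation (Tnf, Lta), killing or self-limiting death (Fasl, Tnfsf10), and costimulation of other lymphocytes and antigen-presenting cells (Cd70, Tnfsf4, Tnfsf8, Tnfsf9, Tnfsf14). Tnfsf11 encodes RANKL, known for its action on dendritic cells and osteoclast precursors.

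Several of the genes are neighbours in the genome (GENCODE M21 on mm10). Tnf (ENSMUSG00000024401, chromosome 17, 35199381 to 35202007, minus strand) and Lta (ENSMUSG00000024402, chromosome 17, 35203165 to 35205351, minus strand) are separated by 1157 bases. Tnfsf9 (ENSMUSG00000035678, 57105325 to 57107757, plus strand), Cd70 (ENSMUSG00000019489, 57145997 to 57149777, minus strand) and Tnfsf14 (ENSMUSG00000005824, 57189492 to 57194177, minus strand) follow each other on the same chromosome, with gaps of 38.2 and 39.7 kb and no other protein-coding gene between them. Tnfsf4 (ENSMUSG00000026700, chromosome 1, 161395409 to 161418410, plus strand) and Fasl (ENSMUSG00000000817, chromosome 1, 161780689 to 161788495, minus strand) lie 362 kb apart with 1 protein-coding gene between them. Tnfsf8 (ENSMUSG00000028362, chromosome 4, 63831308 to 63861347, minus strand), Tnfsf10 (ENSMUSG00000039304, chromosome 3, 27317028 to 27342427, plus strand) and Tnfsf11 (ENSMUSG00000022015, chromosome 14, 78277445 to 78308043, minus strand) stand apart from the others. Gm11110 overlaps Tnfsf9 on the opposite strand and Mir6974 lies within Lta, so the values of Tnfsf9 and Lta are uncertain to the extent that the counting could mix them.

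RefSeq promoters (GRCm38.p6) were at hand for 7 of the 10 genes: Tnf, Lta, Fasl, Tnfsf8, Tnfsf10, Tnfsf11 and Tnfsf14. The 250 bases before the start of 3 of them are printed because Tnf, which passed the genotype test, and Lta, which did not, are the closest neighbours, and Fasl is a member that rose. All 3 lie on the minus strand and are written 5′ to 3′ along the gene, at chr17:35202008-35202257 for Tnf, chr17:35205352-35205601 for Lta and chr1:161788496-161788745 for Fasl. Capitals mark matches of GGAAA, the core bound by NFAT and other factors, on either strand (TTTCC is its other strand), and of TATAAA.
Tnf: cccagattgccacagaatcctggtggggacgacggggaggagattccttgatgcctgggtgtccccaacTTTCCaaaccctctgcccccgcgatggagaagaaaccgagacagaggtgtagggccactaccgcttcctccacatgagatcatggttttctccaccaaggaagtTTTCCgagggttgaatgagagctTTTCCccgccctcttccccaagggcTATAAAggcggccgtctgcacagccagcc
Lta: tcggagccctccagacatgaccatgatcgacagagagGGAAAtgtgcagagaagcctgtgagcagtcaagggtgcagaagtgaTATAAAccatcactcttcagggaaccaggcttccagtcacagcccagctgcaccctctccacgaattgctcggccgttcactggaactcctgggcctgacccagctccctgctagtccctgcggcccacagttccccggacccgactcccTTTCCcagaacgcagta
Fasl: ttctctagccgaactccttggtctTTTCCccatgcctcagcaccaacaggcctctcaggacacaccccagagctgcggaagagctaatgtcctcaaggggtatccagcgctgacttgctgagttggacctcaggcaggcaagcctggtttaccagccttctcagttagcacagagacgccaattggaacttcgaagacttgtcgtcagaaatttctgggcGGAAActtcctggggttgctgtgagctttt
The core GGAAA was found in 7 of the 7 promoters and in 55.6% of 32851 mouse promoters of the same length, and TATAAA in 3 of 7 (Tnf, Lta and Tnfsf11) against 12.4%. TATAAA was also sought on either strand and at any distance. The Tnf match lay 29 to 24 bases before the start and the Lta match 167 to 162 bases. That of Tnfsf11 lay 32 to 27 bases before the start, on the other strand (TTTATA). The AP-1 motif TGANTCA, which reads the same on both strands, was found in the Tnfsf14 promoter only, against 6.75% of all promoters, and the κB consensus in 0 of 7 against 7.25%. A GGAAA match can share letters with a κB site. These matches describe the letters of the windows and nothing about binding in these cells.

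Gene expression was measured by droplet sequencing (10x Genomics 3′ chemistry) in 3 wild-type libraries, called A, B and C, and 3 knockout libraries, called D, E and F. They held 3423 to 5666 cells each and 27258 in all, with median raw depths of 35573 to 39628 unique molecular identifiers (UMIs) per cell. The series' design gives 3 mice per genotype, and the labels do not say which library came from which mouse or culture, so the p-values measure the spread between these libraries, which may be technical. The deposited values are counts corrected to a common depth; here they were summed per library and given as parts per 1000000 of the library's sum (ppm), and tested on log2(ppm + 1), a scale that understates the fold change of low genes. The targeted gene, Cblb, was at 31.0 to 32.6 ppm in wild-type and 15.0 to 18.4 ppm in knockout libraries (log2 difference -0.85, adjusted p = 0.000816, limma), and Il9 at 166 to 271 against 461 to 915 ppm (1.63, adjusted p = 0.0059). The defining markers of CD4 T cells were present in every library but lower in all knockout libraries (Cd3e 176 to 179 ppm in wild type against 139 to 154 ppm in knockout, Cd4 90.5 to 94.3 against 76.4 to 85.3 ppm, Trac 220 to 227 against 176 to 205 ppm). Summed markers of B cells were at 26.4 to 27.9 ppm in wild type and 25.4 to 32.6 ppm in knockout. Those of the other cell types listed were at or below 11.12 ppm in every library. Several were higher in all knockout libraries. These were CD8 T cells (Cd8a and Cd8b1 together 5.68 to 7.20 against 10.2 to 11.1 ppm, with Cd8a at or under 0.26 ppm) and NK cells (3 of 5 listed markers present, 0.268 to 0.358 against 0.685 to 1.29 ppm). They were also dendritic cells (4 of 5 present, 0.665 to 0.849 against 1.55 to 1.69 ppm), and macrophages and monocytes (1.34 to 1.48 against 1.52 to 1.89 ppm). The last were the listed platelet and red cell markers (0 to 0.0061 against 0.252 to 1.86 ppm). Of these, Pf4 had a mean corrected value of 25.8 in cells of deposited cluster 6 (described below) and 0.00022 in other cells. Their sum is therefore not read as a sign of platelets or red cells. The part of these markers in the results was not tested. The same cell barcode occurred in more than 1 library in 76 cases.

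Over all cells, 7 of the 9 ligands that could be tested were higher in knockout libraries and 0 were lower. Of all 8475 genes tested, 11.0% were called higher and 13.4% lower. The median log2 difference of the 9 ligands was 0.54, and that of all genes tested was -0.01. Cd70 and Fasl passed the low-value filter (a mean of 5 ppm over the 6 libraries) through the knockout libraries, so they could hardly have been tested without differing. Tnfsf4 was below the filter and had no test.

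**Figure D1:**
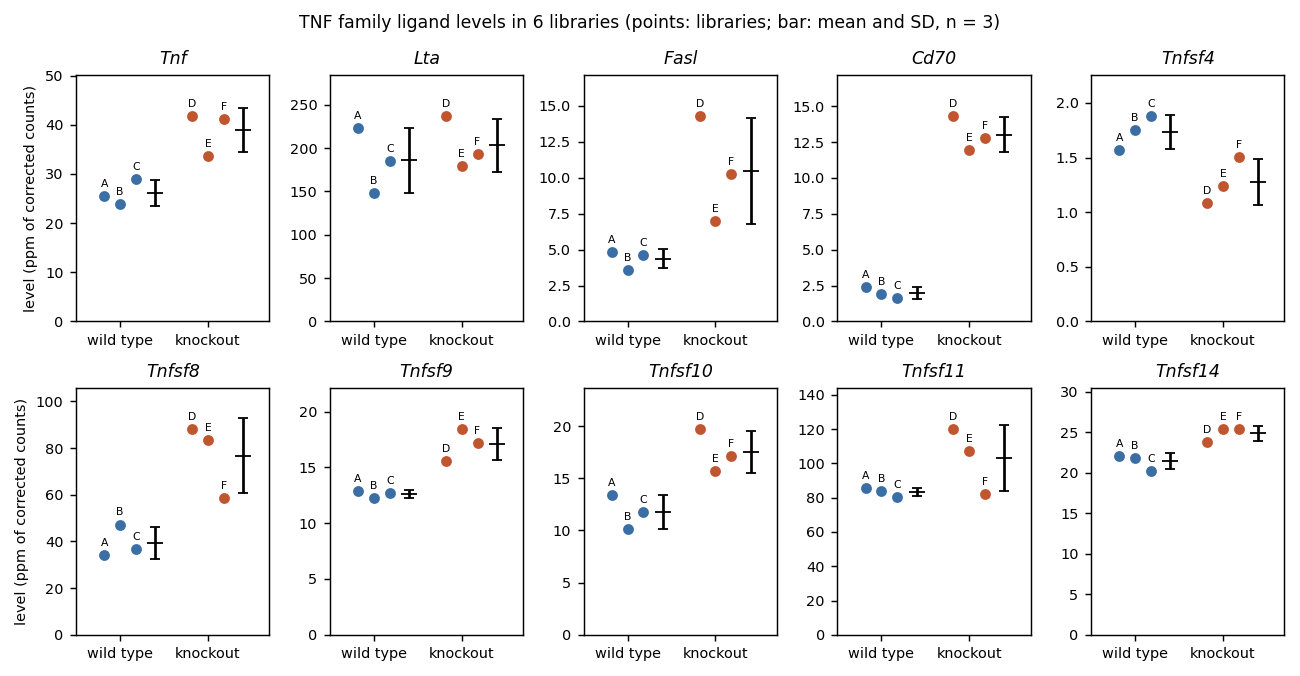
Level of each ligand, in ppm of corrected counts on a linear axis from 0, in wild-type libraries A to C (blue) and knockout libraries D to F (orange); the black mark and bars give the mean and SD of 3 libraries. Cd70 shows the largest ratio between genotypes (1.63 to 2.42 against 11.9 to 14.3 ppm), while Lta overlaps (148 to 223 against 179 to 237 ppm) and Tnfsf4 is the only one with every knockout library below every wild-type library.

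Among the ligands known for inflammation, Tnf rose and its neighbour Lta did not pass the test. Tnf, which encodes the cytokine that names the family, was at 25.5, 23.9 and 29.0 ppm in libraries A, B and C and at 41.9, 33.7 and 41.1 ppm in D, E and F. All knockout libraries lay above all wild-type libraries. The log2 difference was 0.55 (SE 0.10, adjusted p = 0.00767, limma), a 1.47-fold change. Lta, which encodes lymphotoxin alpha, was at 223, 148 and 186 ppm in wild type and 237, 179 and 193 ppm in knockout. The groups overlapped, wild-type library A lying above knockout libraries E and F, and the log2 difference of 0.14 (SE 0.15, adjusted p = 0.532) was smaller than its error. The differences of Tnf and Lta were not tested against each other. Of the 9 tested ligands, 7 had every knockout library above every wild-type library, a pattern that 19.7% of all genes tested had.

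Fasl and Tnfsf10, known above all for killing through their receptors, were both higher in the knockout. Fasl, the ligand of Fas that T cells use to kill and to end their own responses, was at 4.82, 3.59 and 4.64 ppm in wild type and 14.3, 6.96 and 10.2 ppm in knockout (log2 difference 1.06, SE 0.22, adjusted p = 0.0128). The knockout libraries did not overlap with wild type but varied among themselves, with D above F and F above E. Without wild-type library B the difference was 0.96 and its adjusted p 0.0504. Tnfsf10, which encodes TRAIL, was at 13.4, 10.2 and 11.8 ppm in wild type and 19.7, 15.7 and 17.2 ppm in knockout (0.54, SE 0.11, adjusted p = 0.0131). Without wild-type library C its difference was 0.54 with an adjusted p of 0.0562.

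Among the costimulatory ligands the difference was widest for Cd70, the ligand of the receptor CD27. Cd70 was at 2.42, 1.93 and 1.63 ppm in wild type and 14.3, 11.9 and 12.8 ppm in knockout. The ratio of the group means was 6.52, and the log2 difference 2.23 (SE 0.11, adjusted p = 5.65e-05). It kept its call in each of 18 alternatives (adjusted p 5.47e-05 to 0.000894). Tnfsf8, which encodes the CD30 ligand, was at 34.0, 47.2 and 36.8 ppm in wild type and 88.2, 83.5 and 58.4 ppm in knockout (0.94, SE 0.17, adjusted p = 0.00816). Its libraries did not overlap, with F closest to wild type. Tnfsf9, which encodes the 4-1BB ligand, was at 12.9, 12.2 and 12.7 ppm in wild type and 15.6, 18.4 and 17.2 ppm in knockout (0.41, SE 0.07, adjusted p = 0.00645). Tnfsf14, which encodes LIGHT, was at 22.1, 21.9 and 20.3 ppm in wild type and 23.8, 25.4 and 25.4 ppm in knockout, a difference of 0.21 (SE 0.05, adjusted p = 0.0284).

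The calls for Tnfsf9 and Tnfsf14 moved with the make-up of the libraries. The authors' deposited clusters were not equally filled: clusters 1, 3 and 5 made up more of each wild-type library, and clusters 0, 2 and 4 more of each knockout library. With the 6 usable clusters given equal weight, Tnfsf9 differed by 0.15 (adjusted p = 0.169) and Tnfsf14 by 0.12 (adjusted p = 0.258), while Tnf, Fasl, Cd70, Tnfsf8 and Tnfsf10 kept their calls. Tnfsf14 also missed the threshold without library A, B, C or F (adjusted p 0.0742, 0.0844, 0.116 and 0.0599) and in cells of similar depth (0.0859).

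Tnfsf11 and Tnfsf4 completed the set. Tnfsf11 (RANKL) was at 85.6, 83.9 and 80.6 ppm in wild type and 120, 107 and 82.2 ppm in knockout, where library F lay among the wild-type libraries. The difference of 0.29 (SE 0.12, adjusted p = 0.120) did not pass the test; without library F it was 0.44 (adjusted p = 0.00635), and with equal weight for the clusters 0.33 (adjusted p = 0.0334). Tnfsf4, which encodes the OX40 ligand, was at 1.57, 1.75 and 1.88 ppm in wild type and 1.09, 1.24 and 1.504 ppm in knockout. All its knockout libraries lay below all wild-type libraries, a pattern that 25.6% of the genes tested had. In the fit with no filter on low values Tnfsf4 differed by -0.27 (SE 0.09, adjusted p = 0.0844).

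How these levels were spread over cells was read from the share of positive cells, those with a corrected value of at least 1 for the ligand. As a background, cluster 6 held 24 cells (median depth 24759 UMIs against 38077.5 for all cells). They are mast cell or basophil-like by Cpa3 and Mcpt8 among the cluster's 10 leading genes, with Kit, Ms4a2 and Fcer1a also detected. Pf4 was among the same 10 genes. Libraries A to F gave 1, 1, 4, 3, 2 and 13 of the 24 cells, so most came from knockout library F. Intervals for the shares of cluster 6 are exact 95% binomial intervals and cover counting error only. Cd70 was positive in 4.997%, 4.19% and 3.95% of the cells of A, B and C and in 20.8%, 20.2% and 20.2% of those of D, E and F, and in 0 of 24 cells of cluster 6, where a count of 0 allows a share of up to 12.5% (3 cells of 24); the wild-type shares lay below that limit and the knockout shares above it. Its mean value in positive cells was 1.73 ± 0.14 in wild type and 2.43 ± 0.20 in knockout (SD, n = 3). The share and the value per positive cell both lay higher in the knockout by more than these SDs. Fasl was positive in 12.9%, 10.7% and 12.7% in wild-type libraries against 35.1%, 18.5% and 25.4% in knockout libraries, and in 1 of 24 background cells (4.17%, interval 0.105% to 21.1%), an interval that holds the wild-type shares and that of library E.

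For Tnfsf8 the positive share was 50.1% ± 5.35 in wild type and 68.8% ± 6.29 in knockout (SD, n = 3), and the mean value in positive cells 2.98 ± 0.22 and 4.21 ± 0.52, against a background share of 25.0% (interval 9.77% to 46.7%), which holds the share of library A. For Tnf the shares were 40.0% ± 2.33 and 52.5% ± 5.70, against 16.7% (interval 4.74% to 37.4%). For Tnfsf14, the shares were 42.7% ± 1.99 and 49.97% ± 1.44 while the value in positive cells was 1.91 ± 0.01 and 1.90 ± 0.04, a difference within that spread; the background share was 20.8% (interval 7.13% to 42.2%), which holds the share of library C. Tnf, Fasl, Cd70, Tnfsf8, Tnfsf9, Tnfsf10 and Tnfsf14 had higher shares in every knockout library than in every wild-type library; for each of them the exact two-sided permutation test gave p = 0.1, the smallest possible with 3 against 3 libraries, which adjustment over the 10 ligands cannot lower. Of all genes, 17.8% had this pattern.

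Some shares could not be told from background. Tnfsf9 was positive in 28.0% ± 0.41 and 35.1% ± 1.26 of cells, and the background interval (4 of 24 cells, 16.7%, interval 4.74% to 37.4%) holds the share of every library. Tnfsf10 was positive in 29.5% ± 2.71 of cells in wild-type libraries and in 39.8% ± 4.33 in knockout libraries. It was also positive in 11 of 24 cells of cluster 6 (45.8%, interval 25.6% to 67.2%), so its share is not read as a share of expressing cells. At a value of at least 2 the shares were 10.3% ± 2.16 and 16.4% ± 2.17, against 7 of 24 in cluster 6 (29.2%, interval 12.6% to 51.1%). Whether the cells of cluster 6 express Tnfsf10 or the other ligands themselves was not tested. Lta was positive in 83.9% ± 3.00 and 86.7% ± 0.83 and Tnfsf11 in 85.6% ± 0.83 and 85.1% ± 5.58, with background shares of 79.2% and 62.5%. At a value of at least 2 the background fell to 12.5% for Lta and 16.7% for Tnfsf11, and the shares of the T cells were 65.7% ± 4.81 and 70.6% ± 2.29 for Lta and 66.5% ± 1.74 and 69.5% ± 8.47 for Tnfsf11; the genotypes overlapped for both. The mean value of Tnfsf11 in positive cells was 3.71 ± 0.09 in wild type and 4.60 ± 0.64 in knockout, with no test. Tnfsf4 was positive in 5.05% ± 0.37 and 4.03% ± 0.59 of cells, with 0 of 24 in cluster 6, and its genotypes overlapped; at a value of at least 2 every knockout library was lower, as it was for 19.2% of all genes at a value of at least 1.

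The number of the 10 ligands with a corrected value of at least 1 was counted in each cell; it includes the ligands whose shares could not be told from background. The mean number per cell was 3.84, 3.78 and 3.82 in wild-type libraries and 4.92, 4.57 and 4.57 in knockout libraries, against 2.71 in the 24 cells of cluster 6. This mean equals the sum of the positive shares of the 10 ligands, so it restates those shares and adds no separate result. Other sets of 10 genes were not counted. At a value of at least 2 the means were 2.32 ± 0.04 and 2.95 ± 0.18 (SD, n = 3), against 0.958 in cluster 6. Cells with at least 6 of the 10 made up 15.2%, 13.2% and 14.8% of wild-type libraries and 35.6%, 27.2% and 28.9% of knockout libraries. Among cells with raw totals within 20% of the median the means were 3.80 ± 0.02 and 4.61 ± 0.17 (SD, n = 3), so the genotypes also stood apart at matched depth.

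**Figure D2:**
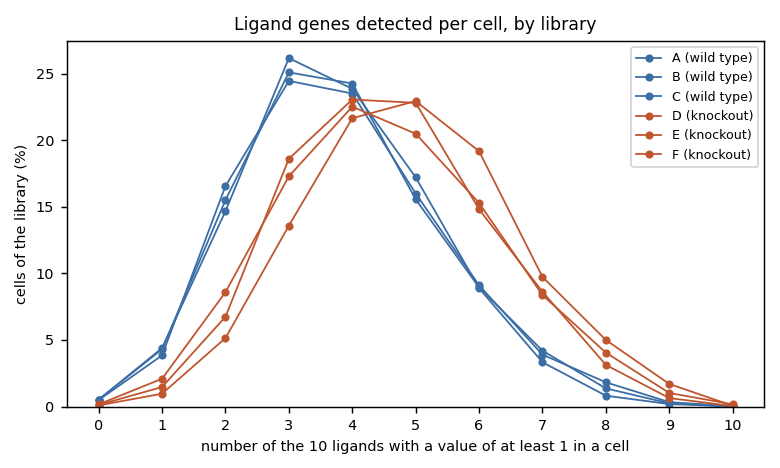
Percent of the cells of each library (y axis) in which a given number of the 10 ligands had a corrected value of at least 1 (x axis); blue lines are wild-type and orange lines knockout libraries. The wild-type libraries peak at 3 ligands per cell (24.4% to 26.2%), where knockout libraries hold 13.6% to 18.6%, and the 3 knockout curves lie above the wild-type curves from 5 ligands on.

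Ligands were also compared for whether they occurred in the same cells. Within each library and deposited cluster, the number of cells with both ligands of a pair was set against the number given by the product of the separate shares. Of 45 pairs, 28 had a ratio above 1 in every library and 2 had a ratio below 1 in every library. The median ratio over pairs and libraries was 1.05. Pairs of other genes were not compared, so these counts have no background and are not read as particular to the ligands. Cd70 and Tnfsf9, which are neighbours on chromosome 17, had a ratio of 1.43 to 1.71, and Fasl and Cd70 one of 1.23 to 1.88. Tnf and Lta, the closest neighbours, had 1.04 to 1.07, and the pairs of Tnfsf8 with Tnf (0.95 to 0.98) and with Lta (0.96 to 0.99) had the ratios below 1. These ratios describe cells that share a library and a cluster, with no limit on depth. In cells of similar depth, Cd70 and Tnfsf9 still had 1.41 to 1.63, and doublets were not removed here.

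The next comparison asked where the ligands were found among the deposited clusters. The clusters were made from the same values, so levels between clusters are described without a test. Lta was highest in cluster 2, where each of the 2716 cells had a corrected Il9 value of 10 or more: 711, 444 and 533 ppm in wild type and 571, 530 and 477 ppm in knockout. These ranges lay above those of the next cluster, cluster 3 in wild type (238 to 332 ppm) and cluster 5 in knockout (271 to 340 ppm). Lta was lowest in cluster 0, at 78.6 to 104 and 101 to 114 ppm, which overlapped with cluster 4 in both genotypes. Tnf was highest in cluster 3 (42.3 to 54.2 ppm in wild type and 54.2 to 90.4 ppm in knockout) and lowest in cluster 1 (17.7 to 20.3 and 25.4 to 39.4 ppm) by the group means. Clusters 3, 4 and 2, in that order, overlapped with their neighbours, and cluster 1 overlapped with the next cluster up in both genotypes.

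Other members were high in clusters 3 and 4 and low in clusters 1 and 2. Tnfsf14 was at 38.0 to 52.6 ppm in wild-type and 50.5 to 53.5 ppm in knockout cells of cluster 4, against 10.0 to 12.5 and 13.9 to 14.0 ppm in cluster 2. In wild type its clusters 4 and 3 overlapped, and so did 1 and 2. Tnfsf9 was at 28.2 to 35.7 and 26.9 to 31.3 ppm in cluster 4 and at 6.36 to 6.86 and 9.21 to 12.5 ppm in cluster 1. Cd70 in wild type was at 4.69 to 15.4 ppm in cluster 4 and at or below 1.01 ppm in clusters 1, 2 and 5. Its cluster 4 range barely cleared that of cluster 3 (1.85 to 4.68 ppm). In knockout, clusters 3 and 4 overlapped (14.0 to 49.5 and 28.8 to 36.7 ppm). Fasl in wild type was at 7.91 to 17.6 ppm in cluster 4 and 9.32 to 12.6 ppm in cluster 3, which overlapped, and at 1.43 to 1.60 ppm in cluster 1. Tnfsf11 was highest in clusters 4 and 3 (112 to 129 and 110 to 118 ppm in wild type) and lowest in cluster 2 (61.5 to 64.1 ppm). Tnfsf8 and Tnfsf10 had no such order: every cluster overlapped with the next in each genotype. Tnfsf4 was at or below 2.69 ppm in every cluster and library, and its clusters also overlapped.

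Within the clusters, 49 member and cluster pairs could be tested and 23 were called higher in knockout and 0 lower. Over the same clusters, 6.90% of all tests were called higher and 8.35% lower; by cluster, the share of genes called higher was 9.06%, 9.22%, 8.39%, 4.54%, 5.33% and 4.90% in clusters 0 to 5. Tnf rose in 5 of 6 clusters (0, 1, 2, 3 and 5), by 0.35 in cluster 0 to 0.88 in cluster 5, and Tnfsf8 rose in 5 of 6 (all but cluster 4), by 0.60 in cluster 0 to 1.16 in cluster 3. Tnfsf10 rose in 4 of 6 clusters, Fasl in 3 of the 4 and Cd70 in 3 of the 3 in which they were tested. In 3 of the 49 pairs (Cd70 in clusters 0 and 3, Fasl in cluster 5) the wild-type mean was below 5 ppm, so the pair passed the filter through the knockout and could hardly have been tested without differing; all 3 were called, and of the other 46 pairs 20 were. Tnfsf9, Tnfsf11 and Tnfsf14 were called in 1 cluster each and Lta in 0 of 6. Of the 23 calls, 11 held in every alternative run for them: Cd70 in clusters 0, 3 and 4, Tnf in 1 and 5, Tnfsf8 in 1, 2 and 3, Tnfsf9 in 1, Tnfsf10 in 1 and Tnfsf11 in 3.

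**Figure D3:**
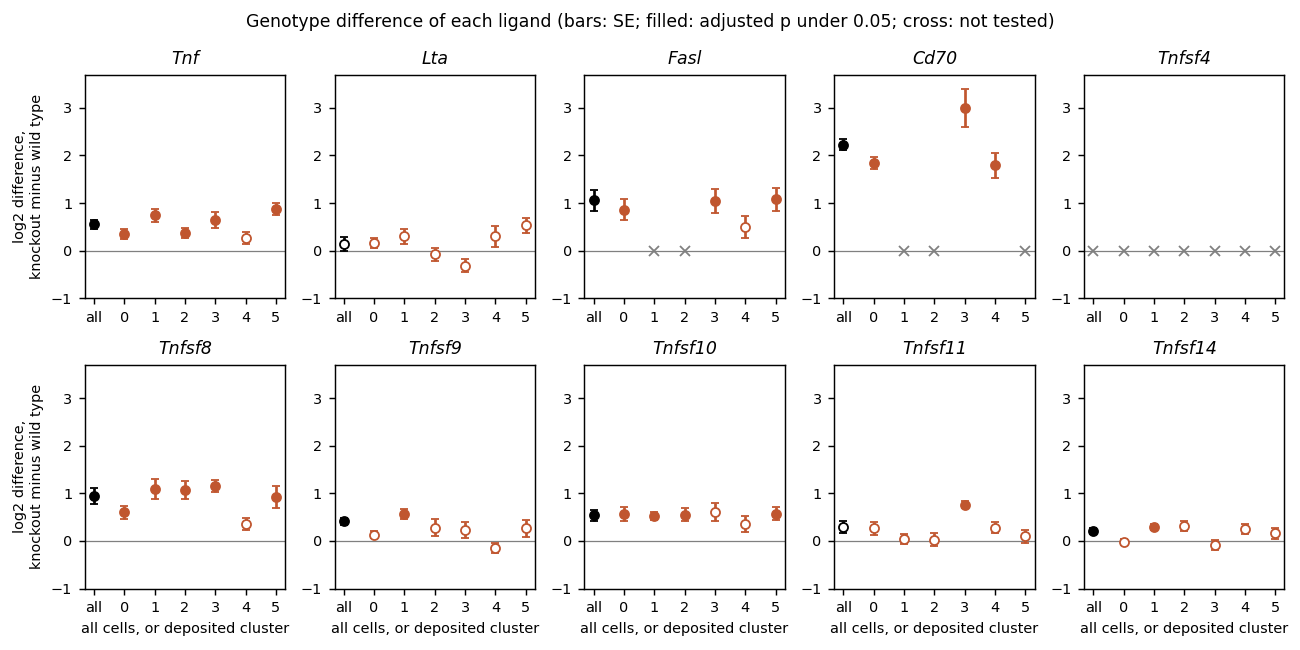
Log2 difference, knockout minus wild type, of each ligand over all cells (black) and in each of deposited clusters 0 to 5 (orange), with SE bars; filled points had an adjusted p under 0.05 (limma), open points did not, and grey crosses were below the low-value filter and were not tested. Every filled point is above 0, with the largest difference for Cd70 in cluster 3 (3.00).

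Cd70 in cluster 3 was at 4.68, 1.85 and 2.46 ppm in wild type and 37.0, 14.0 and 49.5 ppm in knockout (log2 difference 3.00, SE 0.41, adjusted p = 0.00351). In cluster 4 it was at 15.4, 9.08 and 4.69 against 33.8, 28.8 and 36.7 ppm (1.79, SE 0.26, adjusted p = 0.000506), and in cluster 0 at 3.88, 3.16 and 3.23 against 17.96, 13.5 and 13.4 ppm (1.84, SE 0.12, adjusted p = 0.000237). In the untested clusters 1, 2 and 5 every knockout library was again above every wild-type library, at 4.04 to 12.4 against 0.313 to 1.01 ppm. The positive share of Cd70 in cluster 3 was 7.74%, 6.27% and 6.58% in wild type and 42.6%, 21.0% and 49.2% in knockout; that cluster held 61, 186 and 128 cells in libraries D, E and F. The interaction of genotype and cluster, which tests whether the genotype difference in a cluster differs from that in the other clusters, was called in 2.47% of all tests, and for Cd70 in 0 of 6 clusters.

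Tnfsf11, which missed the test over all cells, was at 118, 117 and 110 ppm in wild-type and 212, 178 and 199 ppm in knockout cells of cluster 3 (0.76, SE 0.07, adjusted p = 0.000869), with library F among the other knockout libraries there. Outside cluster 3 its genotypes overlapped in every cluster. The difference between its genotype effect in cluster 3 and that in the other clusters was 0.62 with an adjusted p of 0.0568. Tnfsf9 in cluster 1 was at 6.86, 6.57 and 6.36 ppm in wild type and 9.21, 12.5 and 9.35 ppm in knockout (0.57, SE 0.11, adjusted p = 0.00948). Tnfsf14 in the same cluster was at 11.6, 12.8 and 11.7 against 15.1, 14.9 and 15.0 ppm (0.30, SE 0.06, adjusted p = 0.0129), a call that was lost without library A or without library C.

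Cells were next divided by Il9, which is no member of the family. Il9-high cells, 5190 with a corrected Il9 value of 10 or more, were compared with 10542 Il9-zero cells, whose value was 0, within each library, with the library as a block. Averaged over the genotypes, 2 ligands were higher and 7 lower in Il9-high cells. Of all 8520 genes tested, 25.7% were higher and 36.0% lower. Cd70 and Fasl, among the 7, passed the low-value filter through the Il9-zero cells. Lta was higher in all 6 libraries, at 581, 359, 436, 491, 433 and 404 ppm in Il9-high cells of A to F and 129, 96.8, 114, 99.1, 92.8 and 98.3 ppm in Il9-zero cells. The log2 difference was 2.09 (SE 0.03, adjusted p = 1.23e-16, limma), a 4.24-fold change. Tnf was also higher in all 6 libraries, but by 0.27 (SE 0.04, adjusted p = 7.21e-05).

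**Figure D4:**
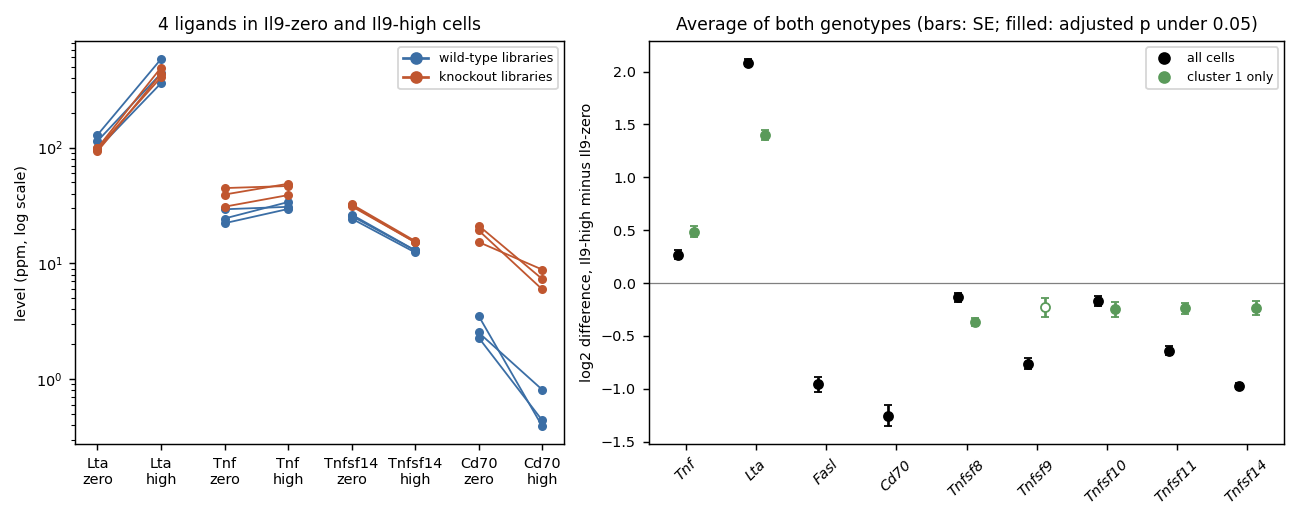
Left, level in ppm on a log axis of 4 ligands in Il9-zero and Il9-high cells, each line being 1 library (blue wild type, orange knockout); right, log2 difference of Il9-high minus Il9-zero cells averaged over the genotypes, with SE, for all cells (black) and for cells of cluster 1 alone (green), filled where the adjusted p was under 0.05. Lta lies far above 0 in both sets (2.09 and 1.40), Tnf slightly above, and the other ligands below.

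The 7 other tested ligands, which include the death and costimulatory ligands, fell in Il9-high cells. In Il9-high cells Cd70 and Fasl had means of 0.549 and 2.09 ppm in wild type and 7.39 and 6.94 ppm in knockout. They reached the filter of 5 ppm through the Il9-zero cells, so they could hardly have been tested without being lower. Cd70 was lower in all 6 libraries (-1.25, SE 0.10, adjusted p = 2.12e-08), at 0.393 to 0.813 against 2.29 to 3.53 ppm in wild type and 5.98 to 8.84 against 15.3 to 21.2 ppm in knockout. Tnfsf14 differed by -0.97 (SE 0.03, adjusted p = 1.4e-13), Fasl by -0.96 (SE 0.07, adjusted p = 1.29e-08), Tnfsf9 by -0.76 and Tnfsf11 by -0.64, each lower in 6 of 6 libraries. Tnfsf10 (-0.17, adjusted p = 0.00568) and Tnfsf8 (-0.13, adjusted p = 0.0156) were lower in 5 of 6. The Tnfsf8 call was lost without library A, E or F, with an adjusted p of up to 0.0941. The step from Il9-zero to Il9-high cells differed between the genotypes for 2 of 9 ligands, Tnfsf8 (0.38) and Tnfsf11 (-0.38), and for 10.8% of all genes tested. The Tnfsf8 difference missed the threshold without library A or C (adjusted p = 0.0614 and 0.0615) and in cells of similar depth. Within cluster 1 it was -0.23 (adjusted p = 0.171), and that of Tnfsf11 -0.20 (adjusted p = 0.388).

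Since all cells of cluster 2 were Il9-high, the comparison was repeated within cluster 1, which held 197 to 389 Il9-high and 76 to 974 Il9-zero cells per library. Lta was higher there by 1.40 (SE 0.05, adjusted p = 1.42e-13) and Tnf by 0.49 (SE 0.05, adjusted p = 9.45e-07). The falls were smaller for Tnfsf14 (-0.24, adjusted p = 0.00928) and Tnfsf11 (-0.24, adjusted p = 0.00115), while Tnfsf8 differed by -0.37 and Tnfsf10 by -0.25 (adjusted p = 0.0149). Tnfsf9 no longer passed (-0.23, adjusted p = 0.0646), and Cd70 and Fasl were below the low-value filter. Within cluster 1, 13.5% of genes were higher and 14.6% lower.

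Knockout libraries hold more Il9-high cells, so the genotypes were also compared in Il9-zero cells alone. There Cd70 differed by 2.37 (adjusted p = 0.000128), Fasl by 1.11 (0.00902), Tnfsf8 by 0.85 (0.00588), Tnf by 0.57 (0.0222) and Tnfsf11 by 0.45 (0.00981), each higher in knockout (adjusted p, limma). In all, 8 of 9 tested ligands were called higher in these cells, against 11.0% of the 8475 genes tested. These were the 8475 genes of the fit over all cells, where Cd70 and Fasl passed the filter through the knockout. Both could therefore hardly have been tested here without differing. In wild-type Il9-zero cells Cd70 was at 2.29 to 3.53 ppm and Fasl at 4.39 to 5.90 ppm. The Il9-zero cells were not matched for cluster. Cluster 1 held 785 of 2100, 974 of 2515 and 843 of 2237 of them in A, B and C. In D, E and F it held 105 of 914, 441 of 2067 and 76 of 709. The 8 calls, which include Tnfsf9 and Tnfsf14, were not tested here with equal weight for the clusters. Lta, at 96.8 to 129 ppm in wild type and 92.8 to 99.1 ppm in knockout, differed by -0.21 (adjusted p = 0.130), the opposite sign to its difference over all cells; neither passed the test.

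The receptors of these ligands were read from the same fit. Of the 11 named partner receptors, Tnfrsf4, the OX40 receptor of the ligand Tnfsf4, was at 640, 600 and 618 ppm in wild type and 1021, 767 and 952 ppm in knockout (0.55, SE 0.10, adjusted p = 0.00756), so that the receptor rose while its ligand was at 1.09 to 1.88 ppm. Tnfrsf9, the 4-1BB receptor of Tnfsf9, was at 49.9, 52.1 and 55.5 against 114, 60.4 and 84.7 ppm (0.66, SE 0.19, adjusted p = 0.0419). That call was lost with no filter on low values (adjusted p = 0.0751), with a prior variance without a trend (0.0521) and without library A, B, C, D or F (0.0617 to 0.125). The others did not pass or were not tested. Fas, at 10.1 to 11.8 and 11.4 to 14.8 ppm, differed by 0.26 (adjusted p = 0.102), Cd27 by 0.22 (adjusted p = 0.198), Tnfrsf10b by 0.21, Tnfrsf1a by 0.10 and Tnfrsf1b by -0.07. Ltbr, Tnfrsf8, Tnfrsf11a and Tnfrsf14, the receptors of lymphotoxin and LIGHT, CD30 ligand, RANKL and LIGHT, were at or below 1.29 ppm in every library.

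Other parts of the pathway were described from lists of genes with a role in it; the counts stand beside 11.0% of all genes called higher and 13.4% called lower, and the medians beside -0.01 for all genes. Of the 8 other ligands listed, 2 were tested: Cd40lg, which T cells use to help B cells, rose by 0.51 (adjusted p = 0.0181) and Ltb, which encodes the membrane partner of lymphotoxin alpha, fell by 0.33 on the log2 scale (218, 200 and 224 against 156, 199 and 159 ppm, adjusted p = 0.0379). The Cd40lg call was lost without library A or B (adjusted p = 0.0635 and 0.0512). The Ltb call was lost in 10 of 18 alternatives, among them each library but E left out (adjusted p 0.0614 to 0.135). Of 10 receptors tested, 4 rose and 0 fell, with a median of 0.24; beside Tnfrsf4 and Tnfrsf9 these were Tnfrsf18, the GITR receptor (0.47, adjusted p = 0.0206, lost without library A, B or C with 0.0624 to 0.0771), and Tnfrsf13b. Of 27 adaptors and signalling genes, 8 rose and 3 fell (median 0.10). Traf1, an adaptor of several of these receptors, was at 49.0 to 49.2 ppm in wild type and 88.6 to 99.3 ppm in knockout (0.90, SE 0.05). Cflar, an inhibitor of death receptor signalling, rose by 0.51, and Traf5, another adaptor, fell by 0.53 on the log2 scale.

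Of 12 sheddases and mRNA decay factors tested, 1 rose (Sppl2a, an intramembrane protease that cuts TNF family stubs, 0.18, a call lost without library A, B, C or D and with equal weight for the clusters) and 1 fell (Elavl1, an RNA-binding protein, -0.26). Of 19 transcription factors driven by the T cell receptor, 9 rose and 1 fell, with a median of 0.24. The 3 with the largest differences belong to the AP-1 and BATF group: Fosl2 at 5.49 to 6.15 against 10.4 to 25.0 ppm (1.40, SE 0.26), Batf at 111 to 117 against 172 to 239 ppm (0.81, SE 0.10) and Fos at 3.64 to 4.10 against 6.04 to 8.88 ppm (0.79, SE 0.12). Fos passed the low-value filter through the knockout libraries.

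Finally, each tested ligand was set beside the genes whose levels followed it most closely over the 36 sums of 6 libraries and 6 clusters. These correlations are descriptions, since the points share libraries, clusters and genotype. Lta followed Il9 most closely (Pearson r = 0.87) of 8488 genes, ahead of Rrm2 (0.85) and Trim27 (0.84). Tnf followed Slamf1 (0.92), Egr2 (0.90) and Furin (0.88), Fasl followed Kdm2b (0.96), Map3k8 (0.94) and Tnfaip8 (0.94), and Cd70 followed Plek (0.95), Cd81 (0.94) and Adora2a (0.93). Tnfsf14 followed Chst2 (0.96), Tlcd2 (0.96) and Arhgap31 (0.95), Tnfsf9 followed Ifih1, Arhgap31 and Il2 (each 0.92), and Tnfsf11 followed Plscr1 (0.92), Ifih1 and Bcl2a1d (0.91). Lower values were found for Tnfsf10 with Ccr8 (0.85), Gpr65 and Tubb2a (0.84), and for Tnfsf8 with Map4k1 (0.82), Arfgef3 (0.82) and Ensa (0.80). Among the ligands themselves, Tnfsf9 and Tnfsf14 had r = 0.89, Fasl and Cd70 0.84, and the adjacent genes Tnf and Lta 0.22.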

How the data were processed

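Single-cell RNA-seq values of 6 libraries came in 1 deposited table. Per the submitters' processing notes, Cell Ranger 3.0.2, Seurat 3.0.0 and genome build mm10 were used; their settings are not stated in those notes. The values per gene and cell, recorded as a score, are counts that the authors had corrected with sctransform, per the file headers, which calls for a test on a log scale and not for one on raw counts. Each cell's raw UMI count, deposited in the same table, was used to describe depth and to choose cells of similar depth (within 20% of the median), and the deposited percent of mitochondrial UMIs to describe quality. The deposited cells were a filtered set (lowest raw total 15006 UMIs, highest mitochondrial share 15.2%), and doublets were not treated here. The table names libraries by sequencing index and genotype, so they are called A to F and have no number to pair them by. Any 2 of them correlated across genes at 0.981 to 0.999, and each was counted as 1 replicate.

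Corrected counts were summed per library, or per library and deposited cluster with at least 50 cells in every library, scaled to ppm, and moved to log2(ppm + 1). The two-sided test was limma's (version 3.58.1 in R 4.3.3), with its prior variance following a trend in mean level. It ran on every gene whose mean reached 5 ppm, and p-values were adjusted over all of these by Benjamini-Hochberg, with calls at 0.05. The interaction of genotype and cluster was tested on the within-library difference between a cluster and the mean of the others. An exact permutation test over the 6 libraries was used for shares of positive cells. The scripts were tested on simulated data. Alternatives changed the pseudocount, filter, scaling, prior, weights, cells or libraries used. Named genes were all 10 ligands, Cblb, Il9, the partner receptors, in each pathway list the 3 largest differences among called genes that did not overlap, and per ligand the 3 genes with the highest correlation; Tnfrsf13b was named after its values were seen. Members, lists and tests were chosen with earlier results of these data known. Coordinates are from GENCODE M21 on mm10, and promoters from RefSeq on GRCm38.p6. Markers of gamma delta T cells (1.54 to 2.43 ppm in wild type, 1.03 to 1.77 in knockout), B cells (26.4 to 27.9 and 25.4 to 32.6), macrophages (1.34 to 1.48 and 1.52 to 1.89), mast cells and basophils (0.0488 to 3.29 and 0.377 to 2.78) and platelets and red cells (0 to 0.0061 and 0.252 to 1.86) were summed in the same way. Of the 4 neutrophil markers listed, 0 were among the genes of the deposited table.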

Additional observations from a re-analysis of the deposited data

Results flagged for a closer look

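The genotype difference of a ligand in 1 cluster was set against its mean difference in the other clusters, by limma on within-library values. Every ligand but Tnfsf4 was tested in each of clusters 0 to 5. Over clusters 0 to 5, 2.47% of all such tests were called, and 6 ligand results were among them. The tests of a ligand in different clusters use the same values, so its calls are not independent. Tnfsf8, the CD30 ligand, differed less between genotypes in cluster 4 than elsewhere (-0.61, SE 0.09, adjusted p = 0.000448): there it was at 40.3, 53.8 and 38.6 ppm in wild type and 56.6, 66.3 and 47.8 ppm in knockout, which overlapped. Its difference was also smaller in cluster 0 (-0.31, adjusted p = 0.0117), a call lost without library A or C (adjusted p = 0.0596 and 0.088). Lta differed downward in cluster 2 relative to the others (-0.27, SE 0.06, adjusted p = 0.008), and upward in cluster 5 (0.46, SE 0.07, adjusted p = 0.00924), where it was at 296, 171 and 202 against 340, 271 and 339 ppm; the second call was lost without B, C or F (adjusted p 0.0531 to 0.0831). Tnfsf11 had a lower difference in cluster 2 (-0.26, adjusted p = 0.0226), lost without B, C or F (adjusted p up to 0.122), and Tnfsf9 a higher one in cluster 1 (0.42, adjusted p = 0.032), lost without A, B, C or D (adjusted p up to 0.189).

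The step from Il9-zero to Il9-high cells also differed between genotypes for 2 ligands; 10.8% of all genes had such a difference. For Tnfsf8 it was -0.32 in wild type and 0.06 in knockout, a difference of 0.38 (SE 0.09, adjusted p = 0.0129), which missed the threshold without library A or C (adjusted p = 0.0614 and 0.0615) and in cells of similar depth. For Tnfsf11 it was -0.45 in wild type and -0.83 in knockout, a difference of -0.38 (SE 0.08, adjusted p = 0.00571). Within cluster 1 alone neither was called: the difference was -0.23 for Tnfsf8 (adjusted p = 0.171), with the opposite sign, and -0.20 for Tnfsf11 (adjusted p = 0.388).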

How the results depend on the processing

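Over the 18 alternatives for all cells, 5 to 8 ligands were called higher and 0 lower by limma. The counts over all genes moved more: leaving out 1 library gave 396 (without C) to 1750 (without E) genes higher against 929, and 381 (without C) to 1396 genes lower against 1139, and no filter on low values gave 1433 higher. Calls of a ligand in a cluster were 23, and 12 to 26 with 1 library left out (12 without C, 15 without D). Interaction calls were 6, and 4 to 15 with 1 library left out (15 without E). In the Il9 comparison, 7 ligands were lower and 4 were in cluster 1 only, where fewer ligands could be tested. For its difference between genotypes, 1 ligand was higher and 1 lower; 0 were higher in cells of similar depth and 0 higher and 0 lower in cluster 1, where Tnfsf8 turned to -0.23, and leaving out 1 library gave 0 (without C) to 2 (without F). At a value of at least 2, and in cells of similar depth, 1 ligand (Tnfsf4) had a lower share in every knockout library, against 0. The cause was not tested. Alternatives in Il9-zero cells, in cluster 1, at values of at least 5 and for interactions were chosen after seeing the data. Depth limits Tnfsf4, Cd70 and Fasl most: they were below 5 ppm in wild type. No paired analysis was possible because the table names libraries by sequencing index and carries no replicate numbers.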
